A study of Mus musculus with 10 samples.

Results

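Kinesins are motor proteins that turn over ATP to move along microtubules or to take their ends apart. The mouse gene family was taken as every protein-coding gene whose GRCm38 symbol is Kif or Kifc followed by a digit, which gave 43 of the 55487 gene rows in both liver count tables. By known role, 13 of them are mitotic motors, 15 carry cargo, 10 act at microtubule ends or in cilia, and 5 have another or unclear role. Kif1bp meets the symbol rule but encodes a KIF1-binding protein and not a motor, and it stayed among the 5.

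Mitotic kinesins push spindle poles apart, move and align chromosomes, and build the midzone where cytokinesis takes place. Their genes are read mainly in cells that pass through G2 and mitosis. Transport kinesins carry vesicles, organelles and RNA in cells that do not divide too, and are best known from neurons. In liver, surgical removal of part of the organ (partial hepatectomy, PHx) brings quiescent hepatocytes back into the cell cycle.

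All livers came from C57BL/6J mice of 8 weeks that had undergone PHx, so no unoperated liver is compared here. The diet experiment set 3 livers of mice on a high-fat diet (HFD), eaten for the last 7 days ahead of the operation, against 3 livers of chow-fed mice, all taken at 40 h. In the inhibitor experiment, 4 libraries from mice given SSO at 40 mg/kg were compared with 4 libraries from mice given solvent (vehicle). Both were given 1 day before surgery, and livers were taken at 48 h. SSO is the usual abbreviation of sulfosuccinimidyl oleate, an inhibitor of the fatty acid receptor CD36. The labels give 8 mice per inhibitor group and do not say which mice the 4 libraries represent, so a p-value in that experiment reflects how far libraries scatter, which may be technical. Where SSO or vehicle livers are numbered or counted below, libraries are meant and not single animals.

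The libraries held 31.9 to 39.9 M counts in the diet table and 25.2 to 30.4 M in the inhibitor table. Values below are CPM, the counts of a gene per M counts of its library, after library sizes were scaled by the trimmed mean of M-values (TMM). A floor of 3 counts corresponds to 0.0770 to 0.0922 CPM in the diet libraries and 0.0817 to 0.136 CPM in the inhibitor libraries, for counting error only. The labels call all mice male, and the diet libraries had 55.0 to 76.3 CPM of the Y-linked gene Ddx3y. The 8 inhibitor libraries had no count of Ddx3y and 698 to 1772 CPM of Xist, which goes against that label in both groups alike. Vehicle 2 stood apart from the other vehicle libraries. Mitochondrially encoded genes took 22.5% of its counts, against 4.99% to 11.5% in the other vehicle libraries and 15.2% to 17.6% in the SSO libraries, and results that rest on it are given with and without it. The 6 hepatocyte markers summed to 55843 to 80216 CPM in the diet libraries and 64557 to 103792 CPM in the inhibitor libraries. Most of this sum was Alb, so it says little about the other markers. Cps1 averaged 1640 CPM in HFD and 3868 CPM in chow livers, and Apoa1 9101 and 6907 CPM, both without overlap. Groups without overlap were found in 21.9% of all genes tested in the diet experiment. None of the 6 markers was called there by edgeR, the test described below (adjusted p = 0.0536 for Cps1 and 0.386 for Apoa1). Unadjusted p was under 0.05 for 2 of them, Cps1 and Cyp2e1, and for 15.0% of all genes tested. In the diet experiment 4 of the 6 had a log2 fold change below 0 and 2 above. In bulk liver, fewer cells of a type and less RNA per cell cannot be told apart.

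Promoters of mitotic and transport kinesins are set side by side first, since these are the classes that the results compare. RefSeq promoter windows (GRCm38.p6, 250 bases before to 50 after the annotated start) were matched by symbol for 33 of the 43 members, among them 12 of 13 mitotic and 10 of 15 transport genes. Many late cell cycle genes are known to carry a CHR element (cell cycle genes homology region), read TTTGAA in its usual form and TTTAAA in a variant, near the start, often downstream of CCAAT boxes bound by NF-Y. In the lines below, which run from 150 bases before the start to 50 after it, capitals mark a CHR element in either form or a CCAAT box, on either strand. On the opposite strand TTTGAA reads TTCAAA, and CCAAT is seen as ATTGG. Kif11 (chr19:37376232-37376431, plus strand), Kif18b (chr11:102925075-102925274, minus strand) and Kif20b (chr19:34922208-34922407, plus strand) are shown as mitotic promoters with a match at the start. Kifc1 (chr17:33890584-33890783, minus strand) and Kifc5b (chr17:26916941-26917140, plus strand) are shown as near-identical copies. Kif18a (chr2:109280588-109280787, plus strand) is the mitotic promoter with no match. Kif1c (chr11:70700398-70700597, plus strand) belongs to the most abundant transport kinesin.
Kif11: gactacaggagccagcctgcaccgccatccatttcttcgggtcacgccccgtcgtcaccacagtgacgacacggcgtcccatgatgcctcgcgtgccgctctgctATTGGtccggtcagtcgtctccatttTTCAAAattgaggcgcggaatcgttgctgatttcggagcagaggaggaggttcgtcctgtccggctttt
Kif18b: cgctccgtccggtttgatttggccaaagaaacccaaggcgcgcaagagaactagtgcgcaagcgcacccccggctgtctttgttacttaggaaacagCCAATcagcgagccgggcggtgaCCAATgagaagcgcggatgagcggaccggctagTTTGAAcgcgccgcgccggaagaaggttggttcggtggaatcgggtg
Kif20b: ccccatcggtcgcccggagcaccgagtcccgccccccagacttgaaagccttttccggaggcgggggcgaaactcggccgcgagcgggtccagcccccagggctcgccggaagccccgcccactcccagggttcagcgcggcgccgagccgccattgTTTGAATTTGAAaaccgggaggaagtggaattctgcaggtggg
Kifc1: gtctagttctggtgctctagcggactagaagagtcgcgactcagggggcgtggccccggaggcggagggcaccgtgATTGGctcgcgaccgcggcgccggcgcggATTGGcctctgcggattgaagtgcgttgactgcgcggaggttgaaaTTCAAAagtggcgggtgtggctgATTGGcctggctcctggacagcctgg
Kifc5b: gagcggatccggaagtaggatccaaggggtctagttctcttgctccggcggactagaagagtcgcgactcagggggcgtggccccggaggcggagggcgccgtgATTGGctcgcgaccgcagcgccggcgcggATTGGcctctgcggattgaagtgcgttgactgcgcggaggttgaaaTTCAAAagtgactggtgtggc
Kif18a: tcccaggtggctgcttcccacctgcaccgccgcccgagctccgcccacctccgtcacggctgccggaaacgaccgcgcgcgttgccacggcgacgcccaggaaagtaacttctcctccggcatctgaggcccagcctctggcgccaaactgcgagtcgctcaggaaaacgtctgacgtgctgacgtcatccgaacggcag
Kif1c: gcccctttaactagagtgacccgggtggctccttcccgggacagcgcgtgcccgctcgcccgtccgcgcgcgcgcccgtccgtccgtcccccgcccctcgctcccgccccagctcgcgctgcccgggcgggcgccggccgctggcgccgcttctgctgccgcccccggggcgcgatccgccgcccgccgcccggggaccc

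TTTGAA was present on either strand in 11 of the 12 mitotic windows (91.7%), in 0 of 10 transport windows and in 2 of 21 non-mitotic windows (9.52%, Kif26b and Kif27). Among the 16521 protein-coding genes with a window of the same length, 2580 held it (15.6%). In the last 150 bases, from 100 before the start, it was present in 9 of 12 mitotic windows (75%), against 6.22% of all windows. The matches in those 9 genes began between 19 bases before the start, in Kif11 and Kif15, and base 30, in Kifc5b. Kif20b carried 2 copies in tandem, from bases 8 and 14. TTTAAA was present in 2 mitotic windows (16.7%), Kif14 and Kif2c, against 11.8% of all windows. CCAAT was found in 8 of 12 mitotic windows (66.7%) and 3 of 10 transport windows (30%), against 38.7% of all. The near-identical copies Kifc1 and Kifc5b each held TTTGAA and CCAAT and are counted as 2 windows. Of E2F sites only the exact letters TTCCCGC were searched, and other forms were not. These letters were in none of the 12 mitotic windows, against 6.19% of all windows. These 4 motifs shared no base with each other in the mitotic and transport windows. For Kif2c, Kif14, Kif27 and Kif17 the RefSeq start used lies well inside the gene as GENCODE bounds it. The Kif2c window held chr4:117178723-117178922, while that minus-strand gene begins at 117182639. The Kif14 window held chr1:136467698-136467897, while that plus-strand gene begins at 136466343. Both TTTAAA matches and the TTTGAA matches of Kif14, Kif2c and Kif27 came from such windows. A match describes the letters only, and no match says no more than that these letters are not in the window.

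**Figure D1:**
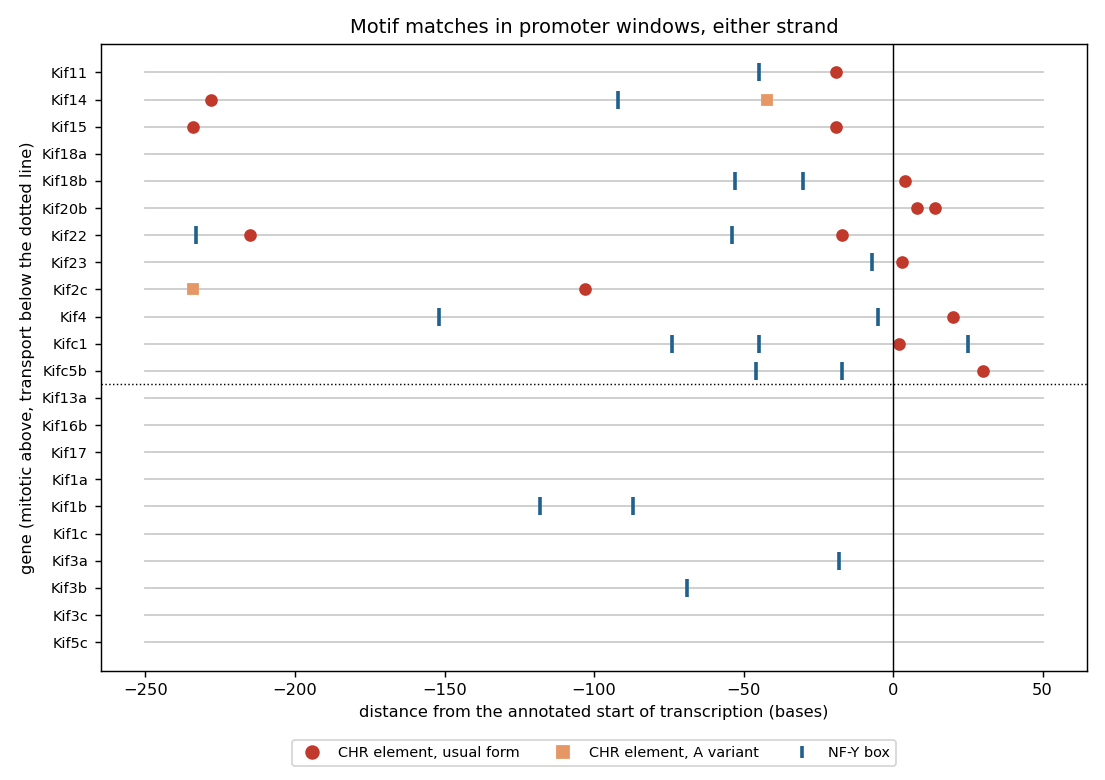
First base of each motif match (bases from the annotated start, x axis) in the windows of 12 mitotic kinesins, above the dotted line, and 10 transport kinesins, below it; circles mark the usual CHR element, squares its A variant and bars the NF-Y box. Circles lie near the start in 9 mitotic genes and in no transport gene, and Kif18a has no mark.

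The first comparison asks how the kinesins differ when a high-fat diet precedes PHx. All 13 mitotic kinesins passed the low-count filter, and 12 of them rose in HFD livers by edgeR's quasi-likelihood test at a Benjamini-Hochberg adjusted p under 0.05. None fell. Over all 15589 genes tested, 2.32% were called, 1.60% higher and 0.718% lower in HFD livers. In all 13 mitotic kinesins every HFD liver was above every chow liver, a pattern that 11.2% of all genes showed and that ran the other way in 10.8% (21.9% in either direction). Their median log2 fold change was 2.79, against -0.02 over all genes tested.

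Summed over the 13 genes, mitotic kinesins reached 232, 176 and 275 CPM in HFD livers 1 to 3, against 43.5, 23.6 and 16.7 CPM in chow livers 1 to 3. The means were 228 ± 49.9 CPM in HFD and 27.9 ± 13.9 CPM in chow (SD, n = 3 each), and the groups did not overlap. Mitotic genes held 23.9% to 34.6% of all kinesin counts in HFD livers, against 2.71% to 7.64% in chow livers. The 15 transport kinesins summed to 506, 482 and 449 CPM in HFD livers and 443, 630 and 518 CPM in chow livers, which overlap.

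**Figure D2:**
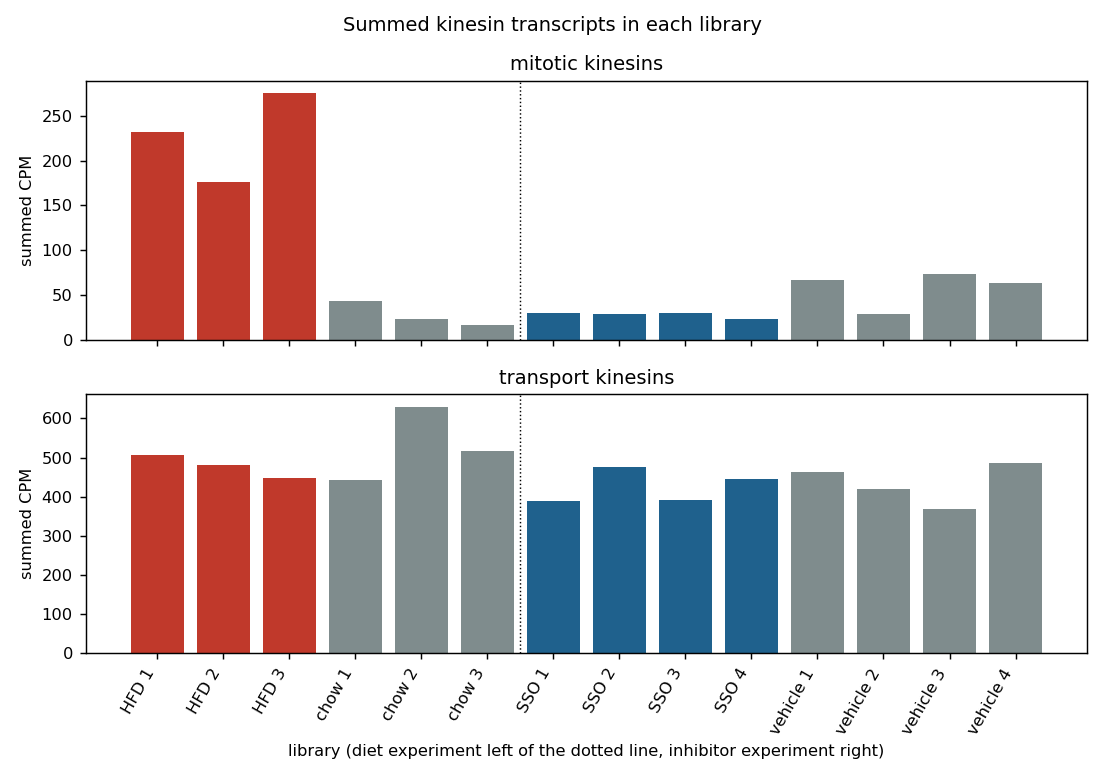
Summed CPM (y axis, from 0) of 13 mitotic kinesins (top) and 15 transport kinesins (bottom), 1 bar per library, with HFD in red, SSO in blue and chow and vehicle in grey. Mitotic sums lie between 176 and 275 CPM in HFD and between 16.7 and 43.5 CPM in chow; vehicle 2, at 29.4 CPM, lies among the SSO libraries.

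Among the motors of the spindle, Kif11 is the bipolar kinesin that pushes poles apart. It had 24.1, 21.4 and 38.6 CPM in HFD livers, against 6.73, 3.37 and 2.00 CPM in chow livers. Kif11 rose by 2.79 ± 0.46 on the log2 scale (SE, edgeR adjusted p = 0.0355). Kif15, which can take over from Kif11 in holding the spindle, had 5.57, 5.23 and 9.27 CPM in HFD livers and 1.75, 1.73 and 0.830 CPM in chow livers. The log2 fold change of Kif15 was 2.21 ± 0.37 (edgeR adjusted p = 0.0173). In both genes HFD 3 was well above the other HFD livers, and every chow liver lay below the lowest HFD liver. Kifc1 is the minus-end motor that gathers spindle poles, and Kifc5b is its near-identical copy in the mouse genome. Kifc1 had 27.3, 19.9 and 33.6 CPM in HFD livers and 4.39, 2.33 and 1.32 CPM in chow livers, with a log2 fold change of 3.32 ± 0.43 (edgeR adjusted p = 0.0126). Kifc5b averaged 11.4 ± 4.94 CPM in HFD and 1.96 ± 0.956 CPM in chow livers (SD, n = 3 each; edgeR adjusted p = 0.0359). Their longest transcripts share 95.9% identity over 2375 aligned bases, so how reads were divided between Kifc1 and Kifc5b is uncertain.

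Among the motors that act on chromosomes, Kif2c takes apart microtubules at centromeres. It had 24.5, 20.9 and 30.2 CPM in HFD livers, against 3.93, 2.09 and 1.20 CPM in chow livers, a log2 fold change of 3.38 ± 0.40 (edgeR adjusted p = 0.00768). Kif4 and Kif22 are chromokinesins, which bind chromosome arms. Kif4 rose by 3.49 ± 0.39 and Kif22 by 2.79 ± 0.34 (log2, SE; edgeR adjusted p = 0.00512 and 0.00797), with no overlap between HFD and chow livers. Kif18b (chr11:102905529-102925124, minus strand), which shortens astral microtubules, had the largest log2 fold change of the 13. It reached 13.2, 10.2 and 16.9 CPM in HFD livers, against 1.49, 1.18 and 0.553 CPM in chow livers, and rose by 3.63 ± 0.36 on the log2 scale (edgeR adjusted p = 0.00197). Its relative Kif18a, which dampens chromosome movements at the metaphase plate, had the smallest. Kif18a had 4.16, 3.32 and 4.90 CPM in HFD livers and 2.00, 1.26 and 0.430 CPM in chow livers, a log2 fold change of 1.74 ± 0.48 that missed the threshold (edgeR adjusted p = 0.115). All HFD livers were still above all chow livers for Kif18a. The difference between the fold changes of Kif18a and Kif18b was not tested.

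Among the motors of the midzone and cytokinesis, Kif20a brings the chromosomal passenger complex to the midzone. It had 35.9, 24.8 and 31.0 CPM in HFD livers, against 3.77, 1.33 and 3.07 CPM in chow livers, and rose by 3.49 ± 0.36 on the log2 scale (edgeR adjusted p = 0.00411). Kif23 pairs with Racgap1 in centralspindlin, the complex that bundles midzone microtubules. Kif23 had 14.1, 9.31 and 15.5 CPM in HFD livers and 2.72, 0.575 and 1.20 CPM in chow livers, a log2 fold change of 3.11 ± 0.52 (edgeR adjusted p = 0.0270), which spanned 2.71 to 3.89 when single livers were left out. Chow 2 was the lowest liver for both, whereas chow 3 was the lowest for the other 11 mitotic kinesins. Kif14, which brings citron kinase to the midbody, rose by 2.79 ± 0.37, and Kif20b, also needed late in cytokinesis, by 2.70 ± 0.39 (log2, SE; edgeR adjusted p = 0.00756 and 0.0129). HFD 2 was the lowest HFD liver for all 13 genes and chow 1 the highest chow liver for all 13.

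**Figure D3:**
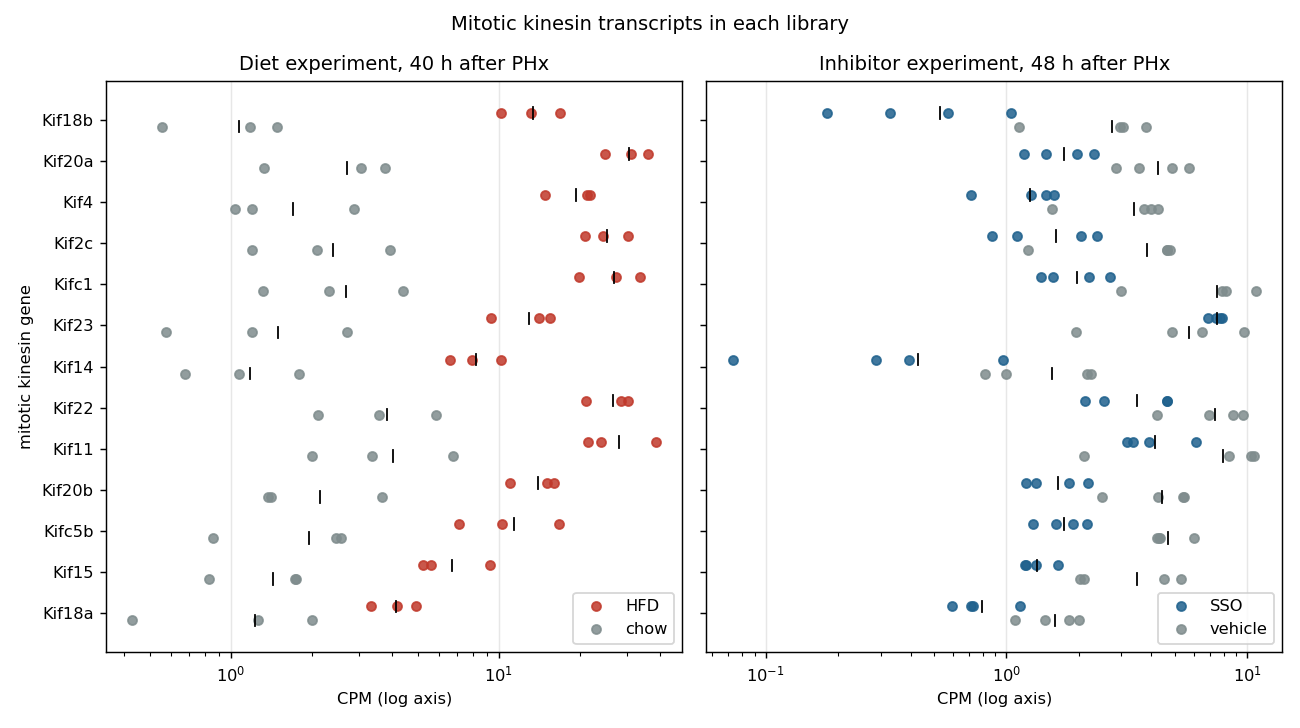
CPM (log axis) of the 13 mitotic kinesins in each library, HFD and chow on the left and SSO and vehicle on the right, with a black tick at each group mean. HFD and chow points do not overlap in any of the 13 genes. Kif23 is the gene whose SSO mean lies above its vehicle mean, with vehicle 2 its lowest vehicle point.

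Leaving out HFD 1 left 6 mitotic kinesins called (0.469% of all genes then called higher), and leaving out HFD 3 left 7 (0.642%), while all 13 log2 fold changes stayed above 0. Without HFD 1 the calls of Kif11, Kif15, Kif20b, Kif23, Kifc1 and Kifc5b were lost, and without HFD 3 those of Kif11, Kif15, Kif20b, Kif23 and Kifc5b. Kif11 and Kif23 also lost theirs without HFD 2, Kif23 without chow 3, and Kif11, Kif15, Kifc1 and Kifc5b without chow 2. With no filter on low counts Kif11, Kif23, Kifc1 and Kifc5b were not called. Kif2c, Kif4, Kif14, Kif18b, Kif20a and Kif22 were called in every alternative fit run. Some kinesin counts are uncertain where a gene on the opposite strand overlaps, since no source used here states strand-specific counting. Such overlap takes over 10% of the exon bases in 7 members, among them Kif20a (29.3%, by Cdc23) and Kif4 (15.1%, by Pdzd11).

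None of the 23 non-mitotic kinesins tested was called in HFD livers by edgeR, DESeq2 or limma-voom, and 3 had an unadjusted p under 0.05 by edgeR, a share no higher than the 15.0% of all genes tested that had one. Their median log2 fold change was -0.16, with a range of -1.39 to 0.55. The 13 transport members had a median of -0.09. Kif1c, a vesicle motor, was the most abundant kinesin in both experiments. It had 221, 190 and 186 CPM in HFD livers and 154, 262 and 220 CPM in chow livers. These ranges overlap, and the log2 fold change was -0.09 ± 0.20 with a 95% interval of -0.65 to 0.46 (edgeR adjusted p = 0.879). Kif5b, the widely expressed kinesin-1 heavy chain, averaged 48.9 ± 2.97 CPM in HFD and 48.4 ± 6.89 CPM in chow livers (SD, n = 3 each). Its log2 fold change of 0.01 had a 95% interval of -0.37 to 0.40. Kif13b, which carries membrane proteins and scaffolds, averaged 54.1 ± 6.88 CPM in HFD and 57.2 ± 2.30 CPM in chow livers, with an interval of -0.45 to 0.28 around -0.08.

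The 3 members with an unadjusted p under 0.05 all had lower values in HFD livers, a combination found in 7.47% of all genes. Kif1b, which moves mitochondria and synaptic vesicle precursors, had 87.3, 95.6 and 98.0 CPM in HFD livers and 102, 176 and 111 CPM in chow livers (log2 fold change -0.47 ± 0.21, edgeR adjusted p = 0.328). Kifc2, a minus-end motor known from neurons, had 5.49, 9.22 and 4.84 CPM in HFD livers and 8.29, 11.8 and 11.3 CPM in chow livers (-0.69 ± 0.27, edgeR adjusted p = 0.278). Kif7, a cilium-tip regulator of Hedgehog signalling, stayed at or under 1.32 CPM in all 6 livers (-1.03 ± 0.44, edgeR adjusted p = 0.320). Kif1b and Kif7 did not overlap between groups, nor did Kif3c, a kinesin-2 subunit, and Kif21a, which restrains microtubule growth. In all 4 the HFD livers were the lower ones. Set against the 10.8% of all genes with this pattern, 4 of 23 is no result about these members. Kif26b, an atypical kinesin that does not walk, had 1.71, 1.30 and 0.827 CPM in HFD livers and 0.873, 2.77 and 6.48 CPM in chow livers, so the lower mean in HFD rests mostly on chow 3. The other kinesin-2 subunits Kif3a and Kif3b, which serve ciliary transport, had log2 fold changes of 0.27 and 0.11, and that of Kif3b was -0.15 without chow 1.

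**Figure D4:**
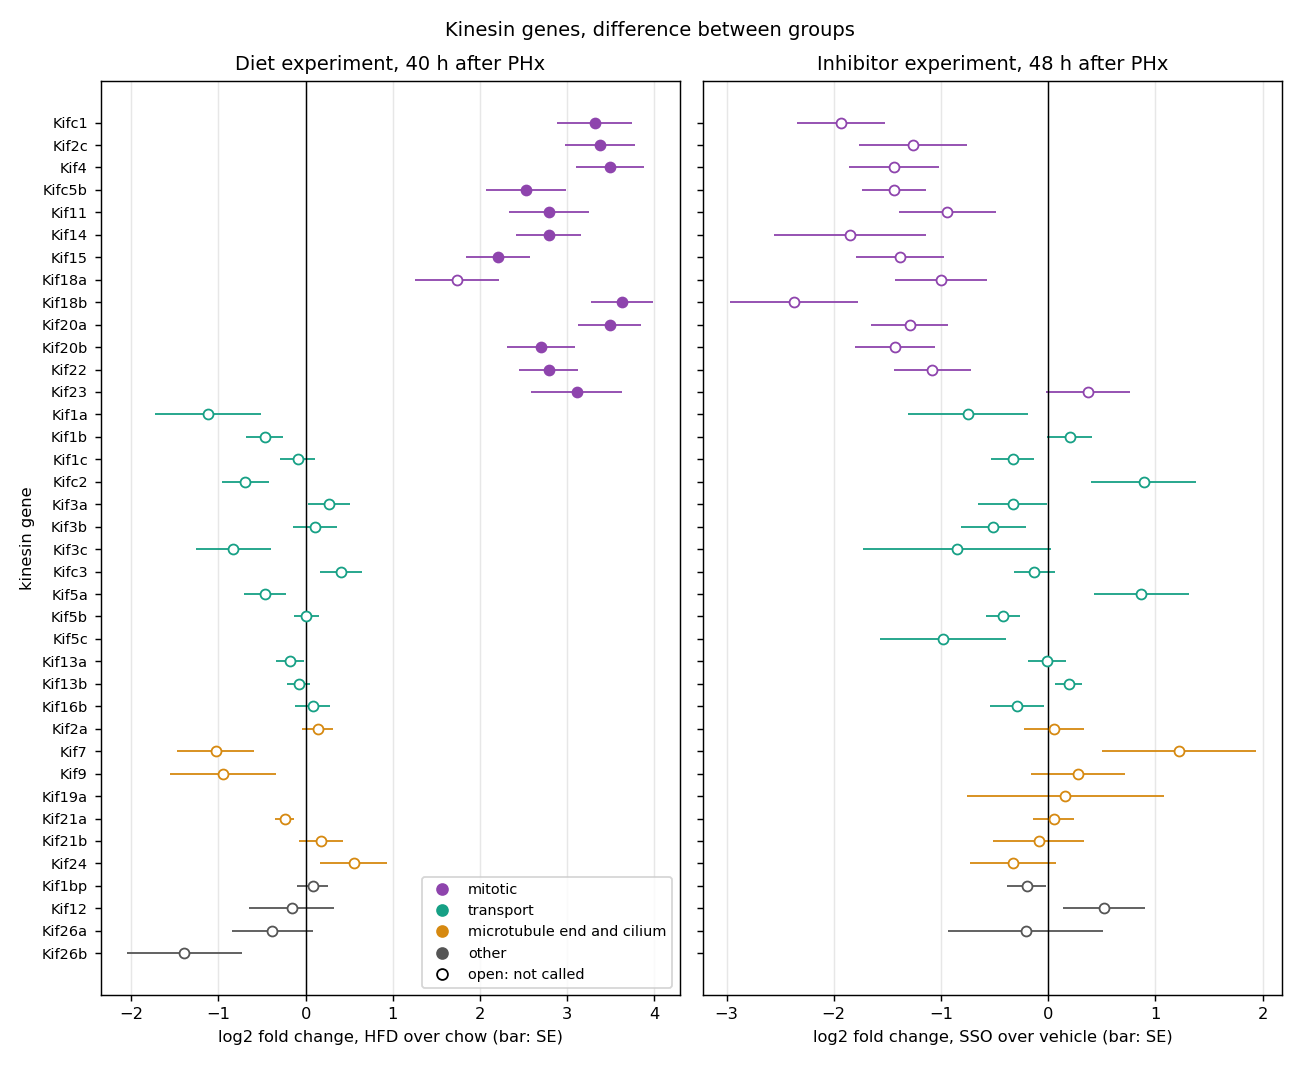
Log2 fold change with its SE (x axis) of each kinesin tested, HFD over chow on the left and SSO over vehicle on the right, coloured by class; filled points were called at an edgeR adjusted p under 0.05. The 12 filled points are all mitotic kinesins in the diet panel; on the right 12 of 13 mitotic points lie below 0 and none is filled.

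Low counts kept 7 members out of the diet test and 6 out of the inhibitor test. Kif2b and Kif28 had no count in any of the 14 libraries. Kif6 had 2 counts in HFD 3, 4 in chow 3 and none elsewhere. Kif17, a dendritic transport motor, and Kif27, a cilium gene, stayed at or under 0.594 CPM in every library. Kif5c, the neuronal kinesin-1 heavy chain, and Kif19a, which sets cilium length, were left out in the diet table alone, and Kif26b in the inhibitor table alone.

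Per kilobase of exon, Kif1c led in every group, at a mean of 27.3 CPM per kb in HFD, 29.2 in chow, 17.9 in SSO and 22.4 in vehicle livers. In HFD livers the mitotic motors Kifc1 (7.88 CPM per kb) and Kif20a (7.05) came next, ahead of Kif21a (6.62) and Kif5b (6.13). In chow livers Kif21a (7.82), Kif1b (7.37) and Kif5b (6.07) followed Kif1c, and Kifc1 and Kif20a had 0.785 and 0.629 CPM per kb. SSO livers had Kifc2 in second place, at 9.87 CPM per kb, against 5.31 in vehicle livers. These are levels per exon length and not differences, and the tables of the 2 experiments were not tested against each other.

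**Figure D5:**
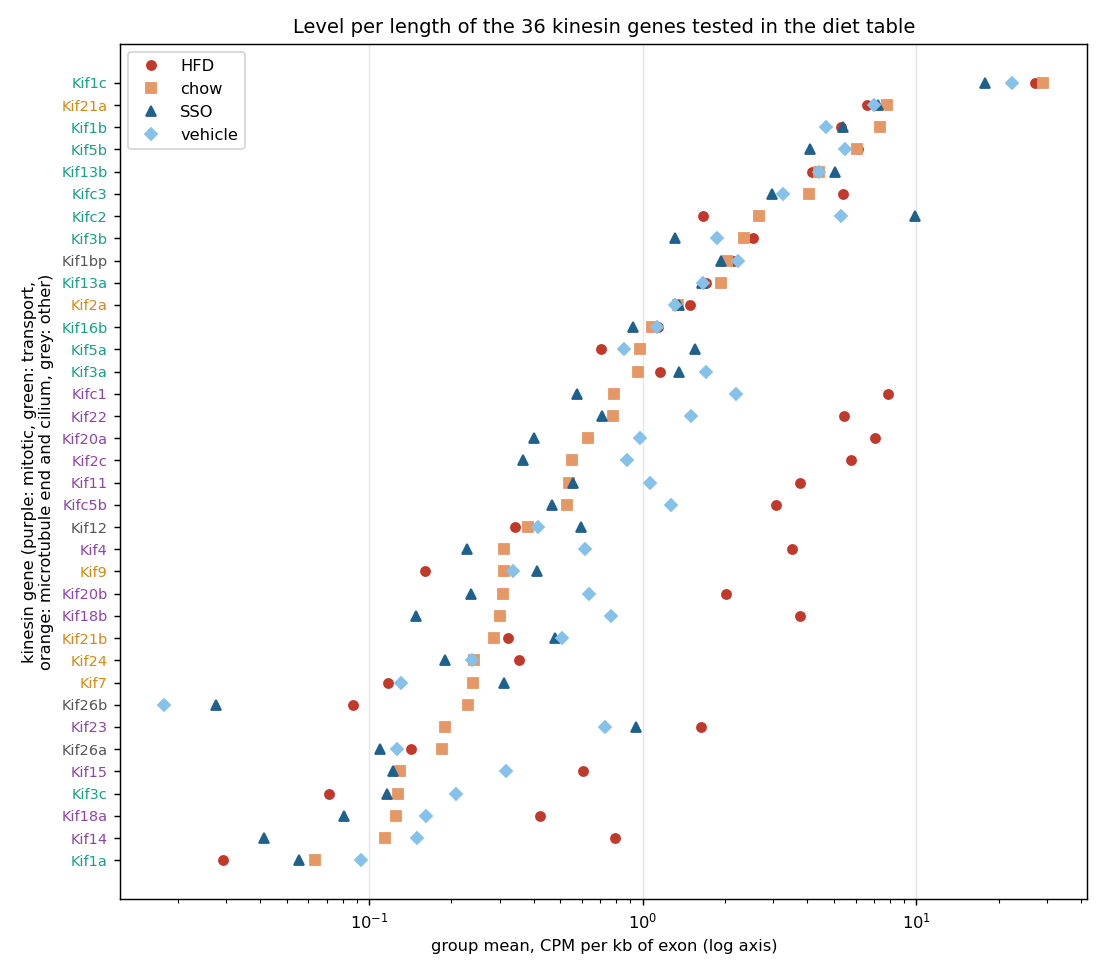
Group mean level in CPM per kb of exon (log axis) of the 36 kinesins tested in the diet table, ordered by the chow level, with gene names coloured by class. Kif1c is highest in all 4 groups, and the mitotic genes (purple) have their HFD point to the right of the chow, SSO and vehicle points.

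Genes that work with these motors were described from lists of known partners. Of 15 spindle and midzone partners, 14 were called higher in HFD livers by edgeR, as were 1.60% of all genes tested. All 15 log2 fold changes were above 0, with a median of 2.98. Ect2, the RhoA exchange factor of cytokinesis, rose by 3.23 ± 0.20 (log2, SE; edgeR adjusted p = 0.000444), and Racgap1, the partner of Kif23, by 3.51 ± 0.29 (edgeR adjusted p = 0.00103). The kinetochore kinesin Cenpe, which the symbol rule leaves out, rose by 3.56 ± 0.42 (edgeR adjusted p = 0.00781). Numa1, a spindle pole protein, was the partner not called (0.22 ± 0.11, edgeR adjusted p = 0.404). Of 8 cell cycle markers, all above 0 on the log2 scale, 7 were called higher. Among them were Mki67, Ccnb1 and Cdk1, at log2 fold changes of 3.35, 3.90 and 2.92. By contrast, none of 14 transport partners and none of 20 dynein and dynactin genes tested was called by edgeR, DESeq2 or limma-voom. Unadjusted p was under 0.05 for 1 and 2 of them, against 15.0% of all genes tested. Kifap3, the cargo adaptor of kinesin-2, had the smallest unadjusted p of the transport partners (log2 fold change 0.56, edgeR adjusted p = 0.282). The 6 recruited monocyte and neutrophil markers summed to 23.3 to 34.4 CPM in HFD and 18.5 to 33.1 CPM in chow livers, which overlap. Without overlap, the 6 cholangiocyte markers summed to 104 to 112 CPM in HFD and 57.0 to 88.1 CPM in chow livers, and the 6 erythroid markers to 181 to 291 CPM in HFD and 297 to 539 CPM in chow livers. Most of the cholangiocyte sum was Spp1, which other cells express too, at 82.5, 87.4 and 85.1 CPM in HFD livers and 63.9, 58.8 and 39.6 CPM in chow livers. Of the 6 cholangiocyte markers 3 had a log2 fold change above 0 and 3, the keratins Krt19 and Krt7 and the adhesion molecule Epcam, one below 0. Of the 5 erythroid markers tested 1 was above 0 and 4 below. No marker of these lists was called by edgeR. An unadjusted p under 0.05 was found for 2 cholangiocyte and 4 erythroid markers, and for 15.0% of all genes tested. The part of these cells in the kinesin values was not tested.

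The second comparison asks how the kinesins differ when SSO precedes PHx. No mitotic kinesin was called by edgeR, 11 had an unadjusted p under 0.05, all with lower values in SSO livers, as had 12.5% of all genes (20.5% in either direction), and 12 of 13 log2 fold changes were below 0. limma-voom called none, and DESeq2 called 7 lower, when it called 4.79% of all genes lower. Over the 15788 genes tested, edgeR called 0.450%, 0.317% higher and 0.133% lower in SSO livers. The median log2 fold change was -1.38 for the mitotic kinesins and -0.04 over all genes. In 6 mitotic kinesins every SSO library was below every vehicle library, as in 5.62% of all genes, while 6.14% ran the other way (11.8% in either direction).

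Mitotic kinesins summed to 30.4, 28.6, 30.0 and 23.4 CPM in SSO livers 1 to 4, against 67.2, 29.4, 74.1 and 63.2 CPM in vehicle livers 1 to 4. The means were 28.1 ± 3.23 CPM in SSO and 58.5 ± 19.9 CPM in vehicle (SD, n = 4 each). Vehicle 2 lay inside the SSO range, and the other vehicle livers were all above it. Without vehicle 2, edgeR called 10 of 13 mitotic kinesins lower, all but Kif14, Kif18a and Kif23, in a fit that called 9.23% of all genes lower and 6.96% higher. The median log2 fold change of the 13 was then -1.56. Leaving out any other single library gave 0 mitotic calls.

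The spindle motors Kifc1 and Kifc5b came nearest to the threshold. Kifc1 had 1.56, 2.69, 2.21 and 1.39 CPM in SSO livers, against 7.83, 3.00, 10.9 and 8.16 CPM in vehicle livers, a log2 fold change of -1.93 ± 0.41 (edgeR adjusted p = 0.0831). Kifc5b had 1.60, 2.15, 1.89 and 1.29 CPM in SSO livers, against 4.33, 4.22, 5.99 and 4.28 CPM in vehicle livers (-1.44 ± 0.30, edgeR adjusted p = 0.0831). Neither gene overlapped between groups, and for Kifc5b vehicle 2 was close to vehicle 1 and vehicle 4. Kif15 had a log2 fold change of -1.38 ± 0.41 (edgeR adjusted p = 0.128), also without overlap. Kif11 had 3.16, 6.15, 3.35 and 3.90 CPM in SSO livers, against 8.42, 2.09, 10.7 and 10.4 CPM in vehicle livers (-0.94 ± 0.45, edgeR adjusted p = 0.272). Here vehicle 2 was the lowest of all 8 libraries.

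Kif18b again had the most extreme log2 fold change of the 13, at -2.37 ± 0.60 (edgeR adjusted p = 0.108). It had 1.04, 0.328, 0.570 and 0.179 CPM in SSO livers, against 3.80, 1.13, 2.97 and 3.05 CPM in vehicle livers. The groups did not overlap, by a narrow margin between SSO 1 and vehicle 2. The midzone motors Kif20a (-1.29 ± 0.36, edgeR adjusted p = 0.112) and Kif20b (-1.43 ± 0.37, edgeR adjusted p = 0.110) did not overlap between groups either. For Kif22 the log2 fold change was -1.08 ± 0.36 and for Kif2c -1.26 ± 0.50 (edgeR adjusted p = 0.149 and 0.195), with overlap.

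Kif23, the centralspindlin motor, was the exception. It had 7.84, 7.72, 6.85 and 7.44 CPM in SSO livers, against 6.51, 1.95, 9.66 and 4.87 CPM in vehicle livers. The SSO libraries lay close together inside the vehicle range, and the log2 fold change was 0.37 ± 0.39 with a 95% interval of -0.59 to 1.33 (edgeR adjusted p = 0.615). It spanned 0.09 to 0.75 when single libraries were left out, and was lowest without vehicle 2. Kif23 made up 22.8% to 31.8% of the mitotic kinesin counts in SSO livers, against 6.64% to 13.0% in vehicle livers, 5.30% to 6.08% in HFD livers and 2.44% to 7.18% in chow livers. Its partner Racgap1 had 3.68, 1.82, 2.92 and 1.93 CPM in SSO livers, against 12.0, 1.13, 10.8 and 9.80 CPM in vehicle livers (-1.71 ± 0.58, edgeR adjusted p = 0.154). The difference between Kif23 and the other mitotic kinesins was seen in these values and was not tested.

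None of the 24 non-mitotic kinesins tested was called by edgeR, DESeq2 or limma-voom. By edgeR 1 of them had an unadjusted p under 0.05, against 20.5% of all genes tested. The median log2 fold change of the 24 was -0.11. That 1 gene was Kif5b, with 34.2, 30.4, 30.1 and 36.2 CPM in SSO livers and 52.1, 35.7, 48.3 and 39.0 CPM in vehicle livers (-0.42 ± 0.16, edgeR adjusted p = 0.180). Without vehicle 2, Kif5b was called lower (-0.50) and Kif5a, a neuronal kinesin-1 heavy chain, higher (1.40). That fit called 9.23% of all genes lower and 6.96% higher, so these 2 calls are no result about the non-mitotic members. With all libraries Kif5a had 8.95, 15.1, 7.31 and 12.2 CPM in SSO livers and 2.25, 11.5, 4.38 and 5.76 CPM in vehicle livers (0.87 ± 0.44, edgeR adjusted p = 0.293). Vehicle 2 was the vehicle library inside the SSO range for Kif5a. Kif13b had 63.1 to 69.2 CPM in SSO and 55.3 to 61.4 CPM in vehicle livers, without overlap, at a log2 fold change of 0.19 ± 0.13 (edgeR adjusted p = 0.401). Kifc2 was uneven within both groups, at 27.3, 55.5, 23.1 and 49.2 CPM in SSO livers and 5.95, 28.6, 16.6 and 32.4 CPM in vehicle livers (0.89 ± 0.49, edgeR adjusted p = 0.335). Kif1c averaged 130 ± 9.47 CPM in SSO and 163 ± 38.4 CPM in vehicle livers (SD, n = 4 each), with a 95% interval of -0.80 to 0.15 on the log2 scale.

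Of the 15 spindle partners, Ect2 fell in SSO livers (-2.53 ± 0.46 on the log2 scale, edgeR adjusted p = 0.0462), and 14 had an unadjusted p under 0.05, all with lower values, against the 12.5% of all genes given above. Of the 8 cell cycle markers, Cdk1 fell (-2.23 ± 0.38, edgeR adjusted p = 0.0396), while Mki67 was at -0.90 and Ccnb1 at -2.05 on the log2 scale (edgeR adjusted p = 0.130 and 0.106). Leaving out any SSO library or vehicle 1 left 0 genes called, so the calls of Ect2 and Cdk1 were then lost. Without vehicle 2, edgeR called 14 of the 15 spindle partners and 8 of the 8 cell cycle markers lower, beside the 9.23% of all genes it then called lower. DESeq2 called 8 and 8 of them lower, and limma-voom 1 and 0. None of 13 transport partners was called by edgeR or limma-voom and 1 by DESeq2, and 2 had an unadjusted p under 0.05. None of 19 dynein and dynactin genes was called by the 3 tools, with 2 at an unadjusted p under 0.05. Over all genes tested by edgeR, 20.5% had an unadjusted p under 0.05 in either direction. Without vehicle 2, edgeR called 2 of the 14 transport partners then tested, 1 higher and 1 lower, and 2 of 19 dynein and dynactin genes, both lower. Kifap3 had 2.08, 2.18, 3.14 and 2.54 CPM in SSO livers, against 4.82, 5.54, 5.36 and 6.17 CPM in vehicle livers (-1.14 ± 0.27, edgeR adjusted p = 0.105).

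Markers of other cells were read in the same libraries. The 6 recruited monocyte and neutrophil markers summed to 10.0 to 23.2 CPM in SSO livers (median 16.4) and 29.1 to 312 CPM in vehicle livers (median 164). Lyz2, the most abundant of them in vehicle livers and one that Kupffer cells also express, had 0.0371, 11.3, 0.428 and 8.01 CPM in SSO livers, against 189, 23.0, 189 and 41.6 CPM in vehicle livers. The vehicle libraries were uneven. Ly6c2 had 48.3 and 74.7 CPM in vehicle 1 and vehicle 3, against 2.18 and 0.720 CPM in vehicle 2 and vehicle 4. For S100a8 and S100a9, vehicle 2 and vehicle 4 lay below every SSO library. All 6 log2 fold changes were below 0. The 6 stellate cell markers summed to 164 to 258 CPM in SSO and 150 to 590 CPM in vehicle livers, which overlap. Of these, Lrat and Dcn had a slightly higher mean in SSO livers, at a log2 fold change of 0.13 each. The other 4 had a lower mean: Col1a1 (-2.93), Col3a1 (-1.83), Reln (-0.50) and Des (-0.39). None of these 12 markers was called by edgeR. Unadjusted p was under 0.05 for 4 monocyte and neutrophil and 2 stellate cell markers, Col1a1 and Col3a1, and for 20.5% of all genes tested. Sums also overlapped for the 6 cholangiocyte markers, at 33.4 to 43.2 CPM in SSO and 41.3 to 163 CPM in vehicle livers. Of the 5 tested, 1 had a log2 fold change above 0 and 4 below. The 6 Kupffer cell markers summed to 163 to 288 CPM in SSO and 83.9 to 412 CPM in vehicle livers, with 3 above 0 and 3 below. No cholangiocyte or Kupffer cell marker was called by edgeR. The part of these cells, of the mitochondrial share and of vehicle 2 in the kinesin values was not tested.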

How the data were processed

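The authors deposited raw read counts per Ensembl gene for each liver table. The GRCm38 build and the tools featureCounts 2.0.2, HISAT2 2.2.1 and Trim Galore 0.6.1 are listed, without roles, in the submitters' processing notes; no source used here gives the strand setting or the treatment of shared reads. Libraries were polyT-selected, per the labels' protocols. Symbols, exons and strands came from GENCODE M21 (GRCm38), which held 55141 of the 55487 gene rows. Each table was fitted alone with edgeR 4.0.16 in R 4.3.3 (filterByExpr, TMM, robust quasi-likelihood, Benjamini-Hochberg over all genes passing, threshold 0.05). The diet fit compared HFD with chow and the inhibitor fit SSO with vehicle, with no covariate. A standard error is the log2 fold change over the square root of its F, and 95% intervals use the t distribution on the residual libraries. DESeq2 1.42.0, limma-voom (limma 3.58.1), other scalings, no filter and leaving out each library were alternatives. The fit was tested on simulated data. No pair of libraries in a group was within sampling noise. The labels hold 1 liver record per group, so all numbered columns of a group were given to its record by name and treated as replicate libraries. The design text gives 3 mice per diet group. The members, classes and lists were chosen with earlier results of these data known. Every member was accounted for. From each partner list up to 4 genes by smallest p, with Mki67, Ccnb1 and Cdk1, could be named. Numa1, Racgap1, Cenpe, Lyz2 and the other cell type markers were named after their values were seen. Sorted-macrophage and single-cell data were not analysed here.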

Additional observations from a re-analysis of the deposited data

Results flagged for a closer look

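Among 74 sets of 4 libraries (37 kinesins in SSO and in vehicle), 6 had 1 library whose gap to its nearest neighbour took up most of the range; chance gives about 1 in 20. Vehicle 2 was far below the other vehicle libraries for Kif11 (2.09 CPM, the next at 8.42), Kif2c (1.23, the next at 4.66), Kif4 (1.54, the next at 3.74) and the endosome motor Kif16b (6.26, the next at 11.2). Vehicle 3 was far above the others for Kifc5b (5.99 CPM, the next at 4.33). SSO 4 was far below the others for Kif13a, a motor of recycling endosomes (12.2 CPM, the next at 13.7). The groups of 3 in the diet experiment were not tested in this way.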

How the results depend on the processing

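In the diet experiment the number of all genes called was 672 with no filter on low counts, 926 with DESeq2 and 206 with the replicate block, and 86 (without HFD 1) to 681 (without chow 1) when single libraries were left out (361 as reported). The mitotic kinesins called ranged from 6 to 13 over those omissions and were 9 with no filter. In the inhibitor experiment all genes called numbered 37 with library size alone (33 higher and 4 lower, against 50 and 21), 205 with no filter, 1218 with DESeq2 and 47 with the replicate block, and 0 (without any SSO library or vehicle 1) to 2646 (without vehicle 2) when single libraries were left out (71 as reported). Mitotic kinesins called there were 1 with no filter (Kifc1) and 7 with DESeq2, and 0 to 10 over the omissions; the other kinesins ranged from 0 to 2. Library size alone moved the median of all genes to 0.13 (diet) and -0.20 (inhibitor). It turned Kif13b and Kif1c in the diet experiment to 0.07 each, and Kif21a in the inhibitor experiment to -0.06. Over the omissions Kif13b spanned -0.15 to 0.02, Kif1c -0.27 to 0.09, Kif3b -0.15 to 0.28 and Kif5b -0.09 to 0.11 in the diet experiment, and Kif21a -0.06 to 0.25 in the inhibitor experiment. Among the members whose fold changes are not given, the sign changed in 6 fits over 4 of 11 members (diet) and 26 fits over 6 of 13 (inhibitor), where library size alone turned Kif2a to -0.17 and Kif19a to -0.13. The cause was not tested. Same-numbered libraries did not deviate together (correlations of -0.12 to 0.02 in the diet and -0.10 to 0.05 in the inhibitor experiment). The replicate block left 9 mitotic kinesins called in the diet experiment and 0 in the inhibitor experiment. Counting Kif2a and Kif2b as mitotic changed no number of calls. With 3 or 4 libraries a group, intervals of the weakly expressed kinesins are wide.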
